A study of Arabidopsis thaliana with 12 samples.

Results

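The genes described here encode the amino acid transporters of the UMAMIT, AAP and LHT families and the small GDU membrane proteins, in Arabidopsis thaliana roots. They were chosen by name: 57 gene symbols were made of UMAMIT, AAP, LHT or GDU followed by a number, and 46 of these reached an FPKM (fragments scaled by gene length and library size) of at least 1 in at least 3 of the 12 libraries. The 46 genes are 31 of 39 UMAMIT, 7 of 8 AAP, 7 of 7 GDU and 1 of 3 LHT symbols, out of 18326 genes that passed the same filter. WAT1 and SIAR1, which belong to the UMAMIT family under other names, fall outside the naming rule and are counted below with the other carriers.

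The study compared the erf114 mutant with the Col accession, with and without methyl jasmonate (MeJA), a form of the plant stress hormone jasmonate that is applied from outside. The groups were erf114 on MeJA, erf114 on MS, Col on MeJA and Col on MS, each with 3 libraries of root RNA, where MS is the half-strength culture medium without hormone. Seedlings of both genotypes had grown for 5 days at 22 °C after 2 days in the cold. The sample titles give 3 h of MeJA. The dose is uncertain, since the protocol states 15 µM where the design description states 50 µM. The kind of erf114 allele is not given in the sources used here, and the labels do not say how many plants or cultures a library held, so the p-values rest on the spread among the libraries, and that spread may be technical.

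Amino acids are the main form in which nitrogen moves between plant organs. Carriers of the AAP and LHT families are proton-coupled importers that bring amino acids into cells, from the soil solution, the xylem or the apoplast around the phloem. UMAMIT proteins (usually multiple acids move in and out transporters) are facilitators, several of which export amino acids, and are known from the loading of the xylem and of seeds. GDU (GLUTAMINE DUMPER) proteins span the membrane once, and plants that overproduce GDU1 secrete glutamine and lose amino acids from their cells. Jasmonate is known to redirect root metabolism from growth towards defence.

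Each library held 20546417 to 20897031 estimated counts. As a check of treatment, VSP2, a vegetative storage protein gene induced by jasmonate, was at 256.17 to 282.77 FPKM in erf114 on MeJA, 1.81 to 2.6 in erf114 on MS, 205.86 to 248.86 in Col on MeJA and 1.67 to 1.93 in Col on MS. ERF114 itself was at 0.65, 0.65 and 0.5 FPKM in erf114 on MeJA and at 2.94, 2.51 and 2.13 in Col on MeJA. On MS it was at 0 to 0.05 FPKM in erf114 and 0 to 0.15 in Col. Between the genotypes on MeJA its log2 fold change was -1.95 ± 0.39 (SE), with an edgeR adjusted p of 0.071. erf114 MeJA replicate 3, erf114 MS replicate 3 and Col MS replicate 1 stood apart from the other libraries of their groups. Of the 3 libraries of its group, erf114 MeJA replicate 3 was the lowest in 22 of the 46 genes (47.8%, against 58.4% of all genes tested), erf114 MS replicate 3 in 23 (50.0%, against 37.3%) and Col MS replicate 1 in 30 (65.2%, against 67.9%). Col MeJA replicate 1 was the lowest of its group in 26 genes (56.5%, against 55.0%). Without the 3 libraries that stood apart, 34 genes were called for MeJA in erf114, against 30 with all libraries, and 32 in Col, against 28. Summed FPKM of the seed storage genes was 56.3 to 98.6 in erf114 on MeJA, 5.38, 89.6 and 74.7 in the erf114 MS replicates 1, 2 and 3, 7.11 to 9.79 in Col on MeJA and 5.3 to 6.16 in Col on MS. Summed FPKM of 8 shoot photosynthesis genes was 124.9 to 496.9 in erf114 on MeJA, 324.7 to 722.9 in erf114 on MS, 171.4 to 398.2 in Col on MeJA and 192.9 to 692.2 in Col on MS, in tissue labelled root. The part of either list in the results below was not tested.

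The promoters of 6 genes are shown because these genes are among the most changed of their family (UMAMIT42, AAP3, UMAMIT17) or sit beside a gene that they can be set against (UMAMIT20, UMAMIT31, UMAMIT30). Each sequence is the 250 bases before the annotated start of the gene, 5′ to 3′ on the strand of the gene, from the RefSeq genome and annotation of TAIR10.1. The windows are chr5:16076222-16076471 (minus strand) for UMAMIT42, chr1:29077391-29077640 (minus strand) for AAP3, chr4:5244615-5244864 (plus strand) for UMAMIT17, chr4:5238523-5238772 (plus strand) for UMAMIT20, chr4:596147-596396 (plus strand) for UMAMIT31 and chr4:608023-608272 (plus strand) for UMAMIT30. Capitals mark every match to CACGTG (the G-box), CACATG or its reverse complement CATGTG (a G-box-like element that MYC factors can bind), GCCGCC (the GCC-box, bound by ERF factors) and TTGACC or TTGACT (W-box forms, bound by WRKY factors), on either strand.
UMAMIT42: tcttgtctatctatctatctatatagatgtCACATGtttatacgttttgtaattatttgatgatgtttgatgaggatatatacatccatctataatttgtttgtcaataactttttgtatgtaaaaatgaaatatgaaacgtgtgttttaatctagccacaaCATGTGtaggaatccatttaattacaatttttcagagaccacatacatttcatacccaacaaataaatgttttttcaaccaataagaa
AAP3: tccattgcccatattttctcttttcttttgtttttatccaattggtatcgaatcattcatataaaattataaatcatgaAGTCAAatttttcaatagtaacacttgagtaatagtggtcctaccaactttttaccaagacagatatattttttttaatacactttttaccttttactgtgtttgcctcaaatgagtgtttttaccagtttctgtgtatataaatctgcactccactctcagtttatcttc
UMAMIT17: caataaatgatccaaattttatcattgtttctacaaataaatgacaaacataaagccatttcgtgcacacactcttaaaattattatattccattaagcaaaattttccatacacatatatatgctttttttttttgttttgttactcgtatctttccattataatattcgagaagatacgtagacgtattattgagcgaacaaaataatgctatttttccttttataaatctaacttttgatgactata
UMAMIT20: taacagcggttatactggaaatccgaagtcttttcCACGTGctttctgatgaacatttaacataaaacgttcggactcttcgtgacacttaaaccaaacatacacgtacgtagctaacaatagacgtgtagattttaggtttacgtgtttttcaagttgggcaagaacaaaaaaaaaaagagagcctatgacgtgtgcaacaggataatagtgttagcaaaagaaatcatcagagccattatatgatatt
UMAMIT31: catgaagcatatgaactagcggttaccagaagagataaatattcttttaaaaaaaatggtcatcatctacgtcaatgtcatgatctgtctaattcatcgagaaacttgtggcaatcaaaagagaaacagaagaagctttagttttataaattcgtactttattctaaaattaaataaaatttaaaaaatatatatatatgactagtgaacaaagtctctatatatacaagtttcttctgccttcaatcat
UMAMIT30: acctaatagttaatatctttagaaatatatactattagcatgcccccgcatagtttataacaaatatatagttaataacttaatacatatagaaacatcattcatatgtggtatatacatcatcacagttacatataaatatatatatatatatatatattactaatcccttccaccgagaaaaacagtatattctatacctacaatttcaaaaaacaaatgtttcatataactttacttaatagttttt

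UMAMIT42 held 2 CACATG elements, UMAMIT20 held 1 G-box at 215 bases before its start, and AAP3 held 1 TTGACT W-box at 171 bases before its start. The windows of UMAMIT17, UMAMIT31 and UMAMIT30 held no match, which says only that these letters are not in these windows. Among the 46 genes, 3 held a G-box (6.5%, against 6.5% of 27443 promoters of all coding genes), namely UMAMIT20, UMAMIT22 and UMAMIT6. A CACATG element stood in 5 of 46 windows (10.9%, against 11.1% of all), a TTGACC W-box in 4 (8.7%, against 12.2%), a TTGACT W-box in 6 (13.0%, against 19.1%) and a GCC-box in 0 (against 1.9%). No motif searched was more common in these 46 windows than in all promoters.

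In erf114, 30 of the 46 genes changed with MeJA (65.2%), where 18.8% of all tested genes did, at a Benjamini-Hochberg adjusted p under 0.05 over all genes (edgeR, quasi-likelihood). Of these, 22 were lower (8.59% of all genes were) and 8 were higher (10.2% of all genes were). In Col, 28 of the 46 changed (60.9%), against 22.0% of all tested genes, with 22 lower (11.5% of all genes) and 6 higher (10.4% of all genes). The median log2 fold change over the 46 was -0.63 in erf114 and -0.52 in Col, where over all tested genes it was -0.01 in erf114 and -0.00 in Col. A change of at least 2-fold was called in 5 higher and 16 lower genes in erf114 (5.63% and 3.76% of all genes), and in 5 higher and 17 lower genes in Col (5.25% and 5.0% of all genes).

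The filter itself takes part in these counts, since UMAMIT29, UMAMIT35 and UMAMIT36 reached an FPKM of 1 in MS libraries only and therefore had to differ. On MeJA, UMAMIT14 reached it only in erf114 replicate 2, and GDU5 only in erf114 replicates 2 and 3. Both therefore also needed their MS libraries to pass, and their falls carry the same limit. Among the 39 genes at 1 FPKM or more in all 12 libraries, 16 were lower and 8 higher in erf114, and 16 were lower and 6 higher in Col. The share over all genes at that level was not computed, so these counts have no background to be read against. Called in both genotypes were 25 of the 46 genes (54.3%, against 14.3% of all genes), 19 of them lower in both (6.46% of all genes) and 6 higher in both (7.79% of all genes). No gene of the 25 changed sign, and 99.8% of the 2615 genes called in both over the whole table kept theirs, so the shared sign is not particular to these genes. The MeJA comparisons in erf114 and in Col share no library, but 1 fit of all 12 libraries gave both. Their p-values therefore rest on a shared estimate of spread and are not independent. FPKM values are shown as deposited, without rescaling between libraries: 32 of the 46 genes had lower FPKM in all 3 erf114 MeJA libraries than in any erf114 MS library (41.0% of all genes had). In Col, 26 were lower without overlap (26.6% of all genes). A drop in FPKM in erf114 can therefore be larger than the edgeR fold change of the same gene, or differ from it in sign. AAP5 and UMAMIT2 were lower in FPKM without overlap in erf114, while their edgeR log2 values there were 0.05 and 0.08, neither called. In whole roots, fewer cells of a type and less RNA per cell cannot be told apart.

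**Figure D1:**
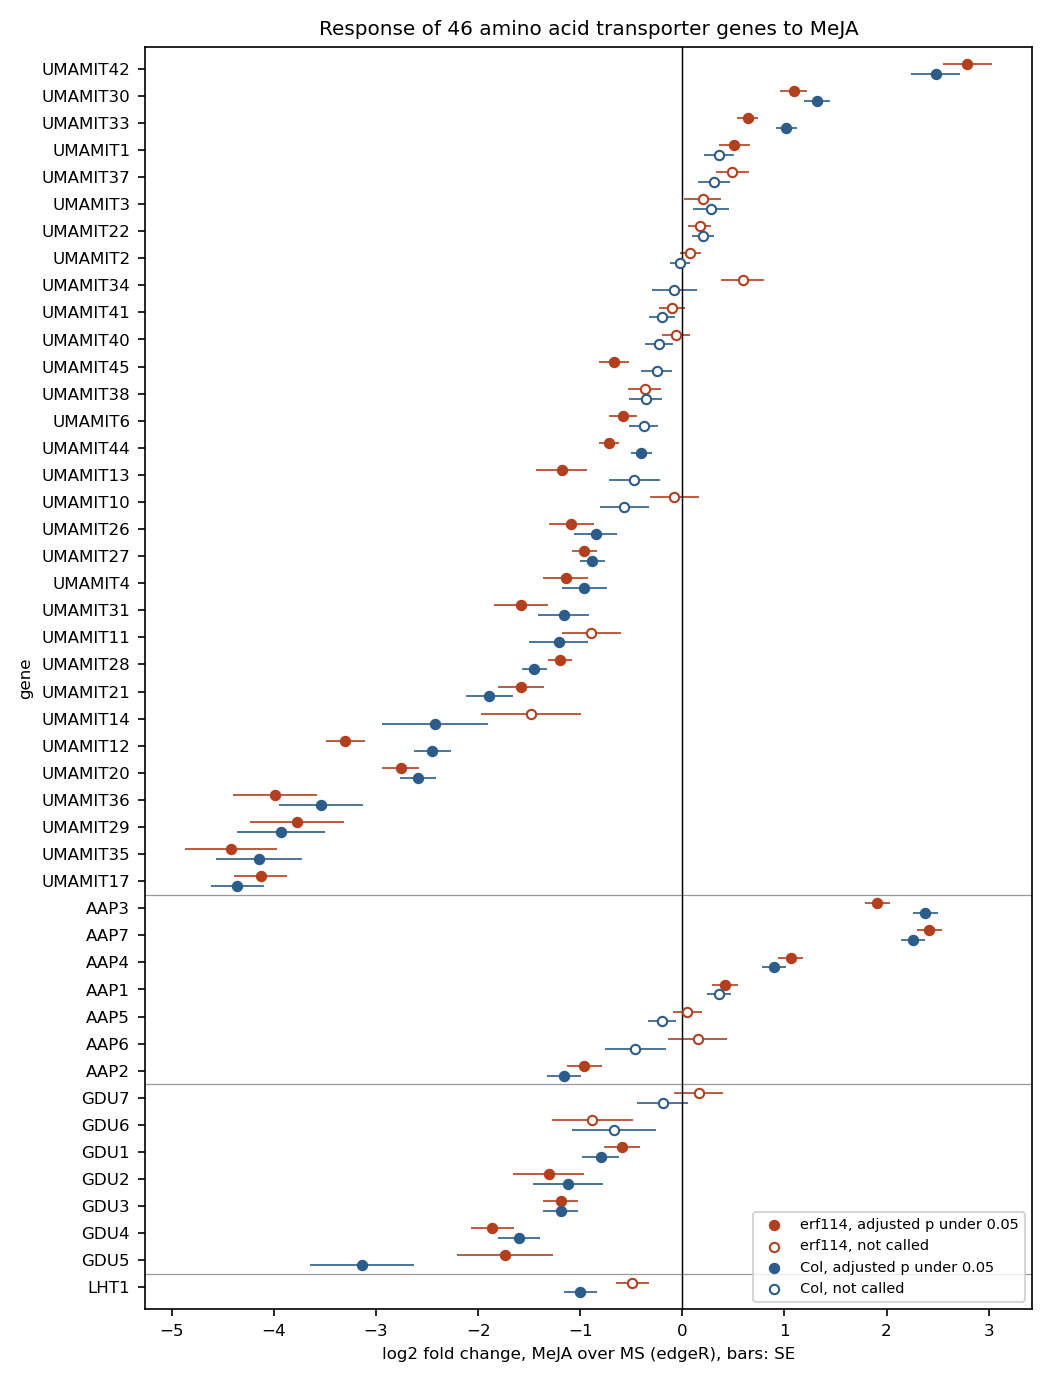
Log2 fold change of MeJA over MS for the 46 genes, in erf114 (red) and Col (blue), with the SE as bars, grouped by family with UMAMIT at the top and LHT1 at the bottom. Filled points passed the edgeR test at an adjusted p under 0.05; 22 genes lie left of 0 as filled points in each genotype, and the right-hand filled points are led by UMAMIT42, AAP3 and AAP7.

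Of the 31 UMAMIT genes, 16 fell in erf114 and 15 in Col, and the steepest falls of all 46 genes were in this family. The falls include UMAMIT29, UMAMIT35 and UMAMIT36, which passed the filter through MS libraries only. UMAMIT14, which fell in Col, also needed its MS libraries to pass. UMAMIT17 was at 2.35, 1.66 and 2.78 FPKM in erf114 on MeJA, against 58.74, 53.15 and 36.91 in erf114 on MS. In Col it was at 2.0, 2.21 and 3.18 FPKM on MeJA, against 47.43, 52.7 and 58.54 on MS. No MeJA library came near an MS library, and the log2 fold change was -4.13 ± 0.26 in erf114 (adjusted p = 3.5e-07) and -4.36 ± 0.26 in Col (adjusted p = 2.7e-07), a 17.5-fold and a 20.5-fold drop. Its neighbour UMAMIT20, whose promoter above holds the G-box, was at 6.34, 5.37 and 4.34 FPKM in erf114 on MeJA, against 47.54, 51.32 and 34.79 in erf114 on MS. In Col, UMAMIT20 was at 6.49, 6.92 and 7.76 FPKM on MeJA, against 42.57, 40.39 and 49.45 on MS. Its log2 fold change was -2.76 ± 0.18 in erf114 and -2.59 ± 0.18 in Col (adjusted p = 4.8e-07 and 7.5e-07), again with wide gaps between the groups.

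UMAMIT12 was at 2.27, 3.08 and 1.61 FPKM in erf114 on MeJA, against 26.32, 28.61 and 28.83 in erf114 on MS. In Col it was at 3.31, 3.81 and 4.71 FPKM on MeJA, against 15.0, 28.7 and 25.48 on MS, where replicate 1 was the low one. The drop was 9.82-fold in erf114 (log2 -3.30 ± 0.19, adjusted p = 1.9e-07) and 5.47-fold in Col (log2 -2.45 ± 0.18, adjusted p = 1.3e-06).

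UMAMIT28, UMAMIT11, UMAMIT14 and UMAMIT29 are amino acid exporters known from the transfer of amino acids to developing seeds, and UMAMIT14 also acts in the root, in pericycle and phloem cells. UMAMIT28 was at 6.1, 6.88 and 5.81 FPKM in erf114 on MeJA, against 16.5, 20.82 and 16.38 in erf114 on MS. Its levels in Col were 6.75, 7.0 and 7.35 FPKM on MeJA, against 19.02, 20.19 and 20.29 on MS. The groups were tight and did not overlap, and the gene fell 2.3-fold in erf114 (log2 -1.20 ± 0.12, adjusted p = 1.5e-05) and 2.74-fold in Col (log2 -1.45 ± 0.12, adjusted p = 3.1e-06).

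UMAMIT11 varied more. It was at 7.28, 16.6 and 14.03 FPKM in erf114 on MeJA, against 32.52, 35.59 and 18.39 in erf114 on MS, and at 11.41, 17.02 and 15.0 in Col on MeJA, against 26.89, 44.82 and 34.62 in Col on MS. All MeJA libraries were below the MS libraries of the same genotype, with erf114 MS replicate 3 close to the MeJA range. It fell in Col (log2 -1.21 ± 0.29, adjusted p = 0.0091), while in erf114 the log2 value was -0.89 ± 0.29 with an adjusted p of 0.05, just over the threshold. In erf114 the call was made in 11 of 22 alternative analyses, among them those without erf114 MS replicate 3 or without erf114 MeJA replicate 2 or 3.

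UMAMIT14 was scarce: 0.33, 1.68 and 0.33 FPKM in erf114 on MeJA, against 3.35, 2.16 and 2.35 in erf114 on MS, and 0.52, 0.26 and 0.64 in Col on MeJA, against 1.62, 3.79 and 2.79 in Col on MS. It fell in Col (log2 -2.42 ± 0.52, adjusted p = 0.005). In erf114 the log2 value was -1.48 ± 0.49 with an adjusted p of 0.054, and the call was made in 5 of 21 alternative analyses. Among these was the one without erf114 MeJA replicate 2, the high library of the group. UMAMIT29 was at 0.16, 0.08 and 0.08 FPKM in erf114 on MeJA, against 2.26, 2.36 and 1.01 in erf114 on MS, and at 0.2, 0.16 and 0.08 in Col on MeJA, against 1.74, 3.2 and 2.44 in Col on MS. It fell in both genotypes (log2 -3.77 ± 0.46 in erf114 and -3.93 ± 0.43 in Col), with an MS level that rests on 139 counts over the 3 erf114 MS libraries and 184 over the 3 Col MS libraries.

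UMAMIT35 and UMAMIT36, which were scarce as well, were near 0 on MeJA. UMAMIT35 was at 0.04 to 0.08 FPKM in erf114 on MeJA, against 1.44 to 2.42 in erf114 on MS, and at 0.08 to 0.12 in Col on MeJA, against 1.56 to 2.22 in Col on MS. Its log2 fold change was -4.42 ± 0.45 in erf114 and -4.15 ± 0.42 in Col. UMAMIT36, known as RTP1 from work on susceptibility to Phytophthora, was at 0.07 to 0.21 FPKM in erf114 on MeJA, against 2.43 to 3.18 in erf114 on MS, and at 0.04 to 0.25 in Col on MeJA, against 1.68 to 2.46 in Col on MS. Its log2 fold change was -3.99 ± 0.41 in erf114 and -3.54 ± 0.41 in Col. In FPKM, UMAMIT35 was at 3.51% of its MS level in erf114 on MeJA and 5.09% in Col on MeJA, and UMAMIT36 at 4.9% in erf114 and 8.04% in Col.

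The other UMAMIT genes called in both genotypes fell by less. UMAMIT4 was at 8.11, 15.74 and 8.07 FPKM in erf114 on MeJA, against 28.84, 26.52 and 30.41 in erf114 on MS (log2 -1.14 ± 0.22, adjusted p = 0.0026), and its log2 fold change in Col was -0.96 ± 0.22. UMAMIT26 was at 1.67, 2.48 and 1.67 FPKM in erf114 on MeJA, against 5.8, 4.32 and 5.1 in erf114 on MS (log2 -1.09 ± 0.22, adjusted p = 0.0031). In Col its log2 fold change was -0.85 ± 0.21 (adjusted p = 0.012), and the call was lost without Col MS replicate 3 (adjusted p = 0.05) or Col MeJA replicate 1 (adjusted p = 0.052). UMAMIT21 had log2 fold changes of -1.58 ± 0.23 in erf114 and -1.89 ± 0.23 in Col, and UMAMIT27 of -0.96 ± 0.12 in erf114 and -0.88 ± 0.12 in Col. Those of UMAMIT44 were -0.72 ± 0.10 in erf114 and -0.40 ± 0.10 in Col, where the call was lost without Col MeJA replicate 3 (adjusted p = 0.057). UMAMIT13, UMAMIT45 and UMAMIT6 were called lower in erf114 (log2 -1.18, -0.67 and -0.58) and not in Col (log2 -0.47, -0.25 and -0.38). In Col, UMAMIT6 passed in 2 of 23 alternatives, both without Col MS replicate 1 (smallest edgeR adjusted p = 0.041). UMAMIT13 passed there in 1 of 22, the one without the 3 libraries that stood apart (edgeR adjusted p = 0.03). None of UMAMIT13, UMAMIT45 and UMAMIT6 passed the test of the difference between genotypes, described below. UMAMIT21 overlaps a long non-coding RNA gene on the other strand, and the strand setting of the counting is not given in the sources used here, so their reads cannot be told apart.

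The UMAMIT genes that rose in both genotypes were UMAMIT42, UMAMIT30 and UMAMIT33. UMAMIT42, with the 2 CACATG elements above, was at 16.33, 17.44 and 11.89 FPKM in erf114 on MeJA, against 2.45, 2.73 and 2.91 in erf114 on MS. In Col, it was at 16.25, 17.84 and 15.29 FPKM on MeJA, against 3.82, 3.19 and 2.08 on MS. All 6 MeJA libraries were at least 11.89 FPKM and no MS library exceeded 3.82, and the rise was 6.91-fold in erf114 (log2 2.79 ± 0.24, adjusted p = 4.4e-06) and 5.56-fold in Col (log2 2.48 ± 0.24, adjusted p = 1e-05).

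UMAMIT30 had the highest mean FPKM of the 31 UMAMIT genes on MS in both genotypes. It was at 100.98, 127.93 and 88.58 FPKM in erf114 on MeJA, against 64.43, 63.86 and 54.77 in erf114 on MS, and at 120.76, 159.54 and 154.42 in Col on MeJA, against 46.56, 74.04 and 64.41 in Col on MS. MeJA libraries were above the MS libraries in both genotypes (log2 1.09 ± 0.13 in erf114, adjusted p = 4.7e-05, and 1.32 ± 0.13 in Col, adjusted p = 1e-05). UMAMIT29, UMAMIT30 and UMAMIT31 are known as exporters of glucosinolates, the sulfur-rich defence compounds of the cabbage family. UMAMIT33 was at 25.74, 28.89 and 26.04 FPKM in erf114 on MeJA, against 21.27, 22.8 and 19.29 in erf114 on MS, and at 26.55, 25.69 and 26.85 in Col on MeJA, against 11.65, 14.55 and 14.86 in Col on MS. It rose 1.56-fold in erf114 (adjusted p = 0.00045) and 2.02-fold in Col (adjusted p = 1.2e-05). UMAMIT33 overlaps TET7 on the opposite strand, and as for UMAMIT21 the reads of both genes cannot be told apart. UMAMIT1 was called higher in erf114 (log2 0.51 ± 0.15, adjusted p = 0.03) and not in Col (log2 0.36 ± 0.15, adjusted p = 0.11). The erf114 call on UMAMIT1 was lost in 10 of 22 alternatives (log2 down to 0.22 and adjusted p up to 0.35). Among these were both limma analyses of FPKM, the edgeR analysis of the 2 groups alone, and those without any 1 of the erf114 MS libraries or without erf114 MeJA replicate 1 or 2.

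**Figure D2:**
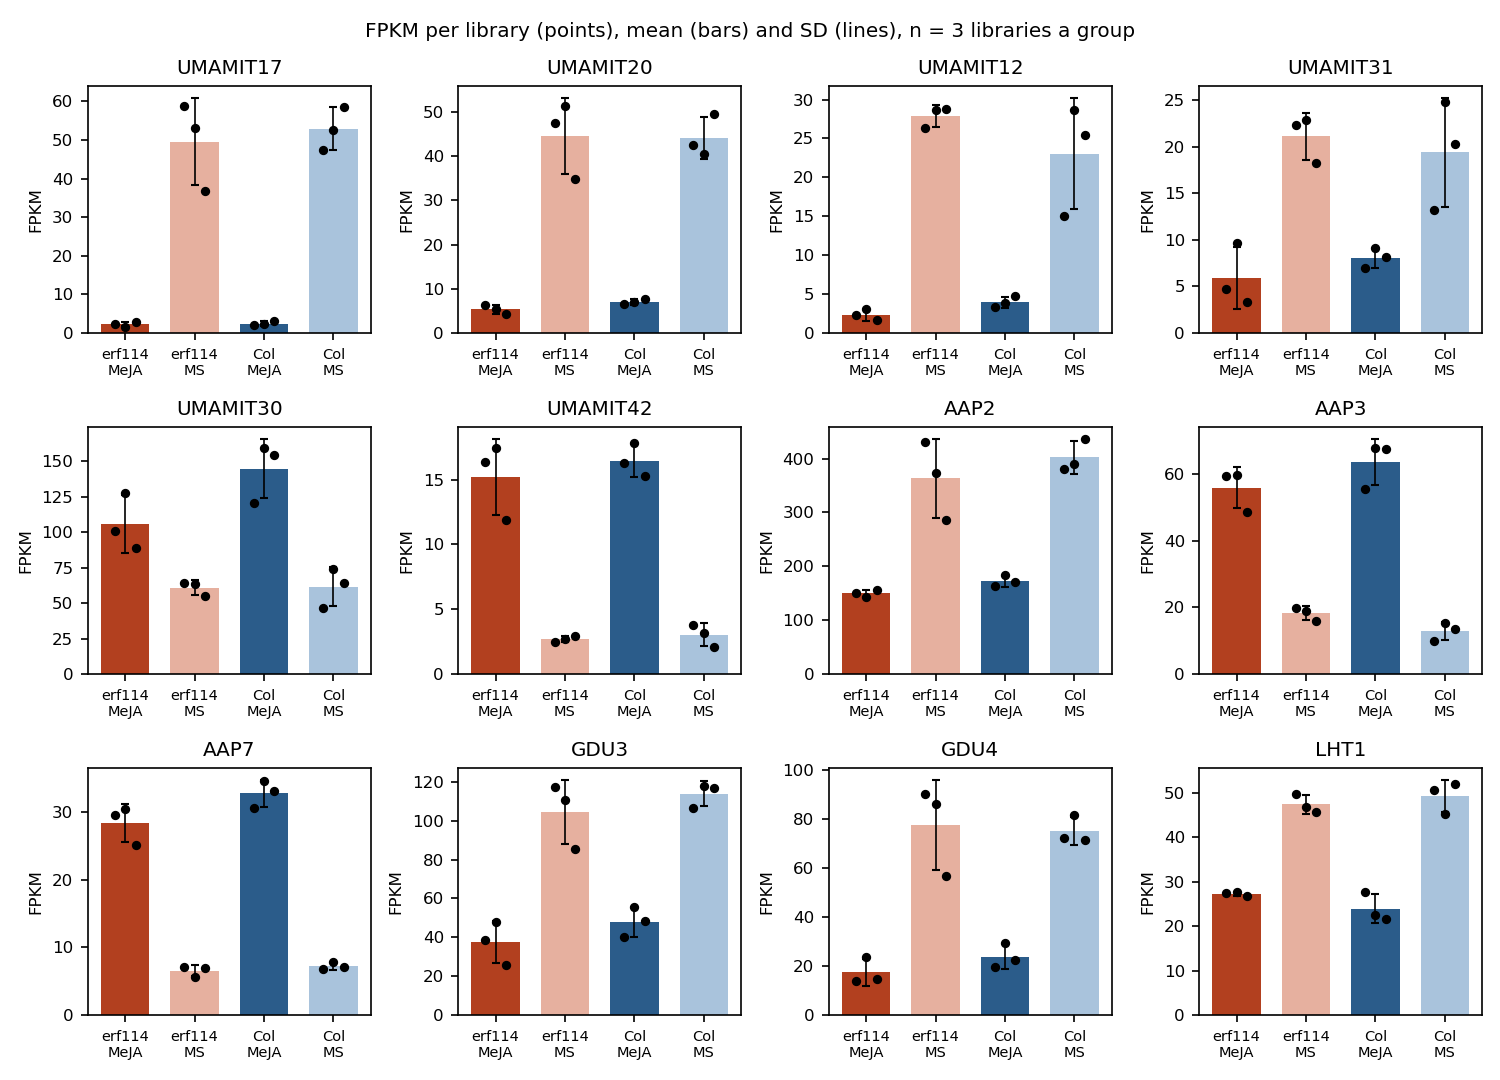
FPKM of 12 genes in each library, with erf114 on MeJA, erf114 on MS, Col on MeJA and Col on MS as bars from left to right; points are libraries, bars are means and lines are SD over 3 libraries. UMAMIT17, UMAMIT20, UMAMIT12, AAP2, GDU3 and GDU4 are low in the MeJA groups, and UMAMIT42, AAP3 and AAP7 are high in them.

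The 9 UMAMIT genes called in neither genotype had log2 values between -0.37 and 0.59 in erf114 and between -0.57 and 0.31 in Col. They include UMAMIT2, at 20.84 to 21.59 FPKM in erf114 on MeJA, 24.31 to 25.2 in erf114 on MS, 21.2 to 23.2 in Col on MeJA and 21.79 to 25.16 in Col on MS, among the least changed of the family. UMAMIT34, which overlaps TET9 on the opposite strand, had a log2 value of 0.59 ± 0.21 in erf114 (adjusted p = 0.078) and -0.08 ± 0.22 in Col (adjusted p = 0.81). As for UMAMIT21, the reads of UMAMIT34 and TET9 cannot be told apart. UMAMIT3, UMAMIT10, UMAMIT22, UMAMIT37, UMAMIT38, UMAMIT40 and UMAMIT41 make up the rest with mean levels between 2.18 and 31.5 FPKM over the 4 groups.

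Neighbouring UMAMIT genes changed by different amounts, and in 1 cluster in opposite directions. On chromosome 4, UMAMIT29 (585598 to 588126, TAIR10.1), UMAMIT31 (596397 to 598752) and UMAMIT30 (608273 to 610765) lie on the same strand within one stretch. UMAMIT31 was at 4.77, 9.7 and 3.38 FPKM in erf114 on MeJA, against 22.26, 22.84 and 18.22 in erf114 on MS, and at 6.99, 9.09 and 8.13 in Col on MeJA, against 13.15, 24.74 and 20.27 in Col on MS. It fell in both genotypes (log2 -1.58 ± 0.26 in erf114, adjusted p = 0.00076, and -1.16 ± 0.25 in Col, adjusted p = 0.0051), as UMAMIT29 did, while UMAMIT30, which starts 9520 bases after UMAMIT31 ends, rose. The coding sequences of UMAMIT31 and UMAMIT30 were identical at 73.3% of the bases of the shorter sequence. By the same measure, UMAMIT29 was identical to UMAMIT31 at 67.0% and to UMAMIT30 at 66.9%.

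A second cluster on chromosome 5 holds UMAMIT42 (16073534 to 16076221), UMAMIT37 (16079648 to 16081893) and UMAMIT40 (16081988 to 16085213), all on the minus strand. UMAMIT42 rose in both genotypes. UMAMIT37 was at 9.07 to 11.13 FPKM in erf114 on MeJA, 8.33 to 9.7 in erf114 on MS, 10.7 to 12.36 in Col on MeJA and 9.47 ± 1.8 (SD, n = 3) in Col on MS, with log2 values of 0.49 (adjusted p = 0.053) in erf114 and 0.31 (adjusted p = 0.2) in Col. UMAMIT40, 94 bases from UMAMIT37 and 82.7% identical to it in coding sequence, had log2 values of -0.06 in erf114 and -0.23 in Col, neither called. UMAMIT42 matches UMAMIT37 at 65.5% and UMAMIT40 at 66.6%.

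In the remaining neighbours, all genes called were lower. UMAMIT20 (chromosome 4, 5238773 to 5241112) and UMAMIT17 (5244865 to 5248394), 3752 bases apart and 65.2% identical in coding sequence, both fell steeply. UMAMIT12 had log2 values of -3.30 in erf114 and -2.45 in Col, and UMAMIT13, 1275 bases from it on chromosome 2 and 84.6% identical, had log2 values of -1.18 in erf114 and -0.47 in Col. UMAMIT27 and UMAMIT26 on chromosome 1 are 93.9% identical in coding sequence, so reads may have been assigned to either, and their separate values are uncertain. The deposited estimated counts of both were whole in all 12 libraries, so no split by fractions shows in them. UMAMIT45 and UMAMIT44 on chromosome 3 are 79.1% identical, and both were called lower in erf114 and UMAMIT44 also in Col.

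**Figure D3:**
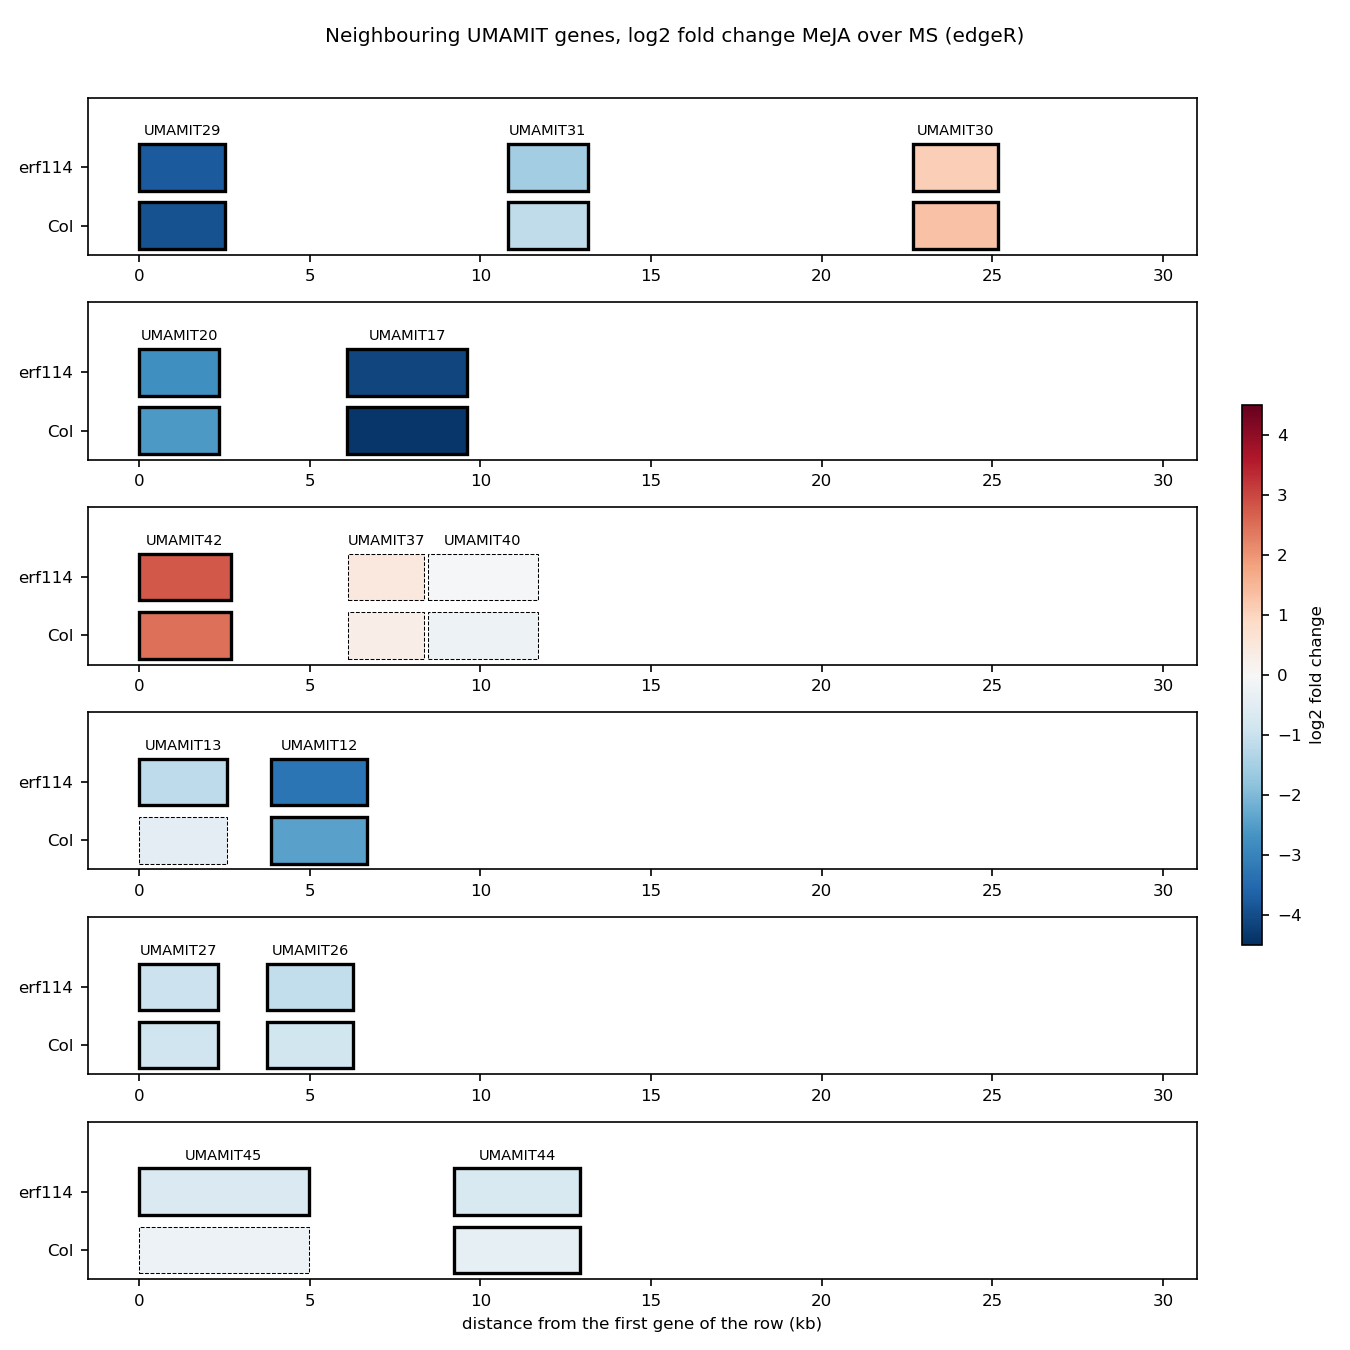
Groups of neighbouring UMAMIT genes drawn to scale, with the distance from the first gene of the row in kb; in each row the upper boxes give the log2 fold change of MeJA over MS in erf114 and the lower boxes that in Col. Thick outlines mark genes called by edgeR at an adjusted p under 0.05 and dashed outlines those not called; in the top row UMAMIT29 and UMAMIT31 are blue (lower on MeJA) and UMAMIT30 is red (higher).

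Among the importers, AAP2, AAP3, AAP7 and AAP4 changed in both genotypes, AAP2 downwards and the others upwards. AAP2, which moves amino acids from the xylem into the phloem, was the most abundant of the 46 genes. It was at 151.32, 143.19 and 155.68 FPKM in erf114 on MeJA, against 431.35, 372.75 and 285.66 in erf114 on MS, and at 163.67, 183.39 and 170.09 in Col on MeJA, against 379.89, 390.35 and 436.73 in Col on MS. It fell 1.95-fold in erf114 (log2 -0.96 ± 0.17, adjusted p = 0.0012) and 2.24-fold in Col (log2 -1.16 ± 0.17, adjusted p = 0.00028), with every MeJA library below every MS library. AAP2 made up 17.2% of the summed FPKM of the 46 genes in erf114 on MeJA, 26.9% in erf114 on MS, 17.6% in Col on MeJA and 29.4% in Col on MS. The summed FPKM of the 46 was 857.9, 945.6 and 812.6 in erf114 on MeJA, 1472.0, 1407.3 and 1177.2 in erf114 on MS, 908.8, 1044.5 and 989.1 in Col on MeJA and 1255.0, 1434.5 and 1422.8 in Col on MS, a description that was not tested.

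AAP3, a carrier of basic and neutral amino acids known from the phloem, was at 59.22, 59.53 and 48.71 FPKM in erf114 on MeJA, against 19.88, 18.87 and 15.92 in erf114 on MS. Its Col levels were 55.46, 67.77 and 67.36 FPKM on MeJA, against 9.99, 15.23 and 13.56 on MS. The MeJA libraries of both genotypes were far above the MS libraries, with a rise of 3.77-fold in erf114 (log2 1.91 ± 0.12, adjusted p = 2.4e-07) and 5.19-fold in Col (log2 2.38 ± 0.12, adjusted p = 5.5e-08). AAP3 overlaps a protein-coding gene on the opposite strand, and as for UMAMIT21 the reads of both genes cannot be told apart.

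AAP7 was at 29.61, 30.48 and 25.18 FPKM in erf114 on MeJA, against 7.13, 5.64 and 6.96 in erf114 on MS, and at 30.64, 34.6 and 33.12 in Col on MeJA, against 6.84, 7.88 and 7.03 in Col on MS. It rose 5.36-fold in erf114 (log2 2.42 ± 0.12, adjusted p = 7.1e-08) and 4.81-fold in Col (log2 2.26 ± 0.12, adjusted p = 1.2e-07), with tight replicates. AAP4, closest to AAP2 in coding sequence (82.9% identical), was at 99.46, 100.73 and 106.89 FPKM in erf114 on MeJA, against 56.81, 62.22 and 64.51 in erf114 on MS, and at 95.2 to 110.24 in Col on MeJA, against 55.6 to 61.24 in Col on MS. It rose 2.08-fold in erf114 (adjusted p = 5.7e-05) and 1.86-fold in Col (adjusted p = 0.0002), where its closest relative AAP2 fell.

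AAP1, AAP5 and LHT1 are the carriers known for taking up amino acids from the medium at the root surface. LHT1 was at 27.34, 27.55 and 26.78 FPKM in erf114 on MeJA, against 49.76, 46.74 and 45.72 in erf114 on MS, and at 27.66, 22.49 and 21.53 in Col on MeJA, against 50.59, 45.15 and 52.05 in Col on MS. FPKM did not overlap in either genotype. LHT1 fell 2.0-fold in Col (adjusted p = 0.00068), while in erf114 the log2 value was -0.49 ± 0.16 with an adjusted p of 0.052. The erf114 call was made in 11 of 22 alternative analyses, including limma on FPKM and those without Col MS replicate 1 or 2 or Col MeJA replicate 1. AAP1 was at 16.18 to 17.51 FPKM in erf114 on MeJA, 15.27 to 16.72 in erf114 on MS, 19.34 to 21.72 in Col on MeJA and 15.92 to 17.9 in Col on MS. It was called higher in erf114 (log2 0.42 ± 0.13, adjusted p = 0.035) and not in Col (log2 0.36 ± 0.12, adjusted p = 0.06), where the fit with the replicate number as a block called it (adjusted p = 0.037). The erf114 call on AAP1 was lost in 8 of 22 alternatives (log2 down to 0.10 and adjusted p up to 0.43). These were both limma analyses of FPKM and those without any 1 of the erf114 MS libraries, without erf114 MeJA replicate 1 or 3, or without Col MeJA replicate 3. AAP5 (log2 0.05 ± 0.14 in erf114 and -0.20 ± 0.14 in Col) and AAP6 (log2 0.15 ± 0.29 and -0.46 ± 0.30) were not called in either genotype.

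The GDU genes moved in 1 direction where they moved: 5 of 7 fell in each genotype, and none rose. Of all genes tested, 8.59% fell and 10.2% rose in erf114, and 11.5% fell and 10.4% rose in Col. Among the 5 is GDU5, which needed its MS libraries to pass the filter. GDU3 was at 38.85, 47.79 and 25.97 FPKM in erf114 on MeJA, against 117.22, 110.37 and 85.59 in erf114 on MS, and at 40.03, 55.59 and 48.27 in Col on MeJA, against 106.45, 117.87 and 117.03 in Col on MS. It fell 2.28-fold in both genotypes (log2 -1.19 ± 0.17 in each, adjusted p = 0.00033 in erf114 and 0.00029 in Col). GDU4 was at 13.88, 23.85 and 14.85 FPKM in erf114 on MeJA, against 90.34, 86.25 and 56.69 in erf114 on MS, and at 19.69, 29.34 and 22.67 in Col on MeJA, against 72.36, 81.61 and 71.46 in Col on MS. It fell 3.62-fold in erf114 (log2 -1.86 ± 0.21, adjusted p = 5.2e-05) and 3.03-fold in Col (log2 -1.60 ± 0.21, adjusted p = 0.00015).

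GDU1, the gene for which the family is named, averaged 28.1 ± 8.4 FPKM in erf114 on MeJA and 51.7 ± 7.6 in erf114 on MS, and 29.5 ± 3.8 in Col on MeJA and 53.4 ± 2.3 in Col on MS (SD, n = 3 each). It fell 1.51-fold in erf114 (adjusted p = 0.035) and 1.74-fold in Col (adjusted p = 0.006), and the erf114 call was lost in the edgeR analysis of the 2 groups alone and without erf114 MS replicate 1 or 2, erf114 MeJA replicate 3 or Col MeJA replicate 3 (adjusted p between 0.052 and 0.14). GDU2 was at 2.26, 3.38 and 3.48 FPKM in erf114 on MeJA, against 11.82, 11.8 and 4.59 in erf114 on MS, and at 3.21, 4.75 and 4.04 in Col on MeJA, against 8.93, 11.15 and 7.03 in Col on MS. It fell 2.48-fold in erf114 (adjusted p = 0.019) and 2.18-fold in Col (adjusted p = 0.034). The erf114 call was lost in the edgeR analysis of the 2 groups alone and without erf114 MS replicate 1 or 2 or erf114 MeJA replicate 1 (adjusted p between 0.06 and 0.085), and the Col call without Col MS replicate 1 or 2 or any 1 of the Col MeJA libraries (adjusted p between 0.065 and 0.1).

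GDU5 was at 0.81, 1.46 and 1.43 FPKM in erf114 on MeJA, against 7.38, 4.19 and 3.82 in erf114 on MS, and at 0.73, 0.73 and 0.42 in Col on MeJA, against 8.38, 4.07 and 4.41 in Col on MS. It fell 3.34-fold in erf114 (adjusted p = 0.019) and 8.82-fold in Col (adjusted p = 0.00077). The MeJA levels of GDU5 rest on 36 counts over the 3 erf114 libraries and 18 over the 3 Col libraries. The difference between the genotypes' responses, described below, was 1.40 ± 0.72 and was not called (edgeR adjusted p = 0.64). The erf114 call was lost without erf114 MS replicate 1 or erf114 MeJA replicate 1 (adjusted p = 0.09 and 0.085). In Col the log2 value was -3.14 with all libraries and -2.55 without Col MS replicate 1, the highest of its group (adjusted p = 0.0011). GDU6 and GDU7 were not called, at log2 values of -0.88 and 0.16 in erf114 and -0.67 and -0.19 in Col. LOG2, a ubiquitin ligase that binds GDU1 and is needed for its effect, was called lower in erf114 (log2 -0.39 ± 0.12, adjusted p = 0.033) and not in Col (log2 -0.33 ± 0.12, adjusted p = 0.065).

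By family, 16 of 31 UMAMIT genes fell and 4 rose in erf114, and 15 fell and 3 rose in Col. These UMAMIT counts, and the UMAMIT medians below, include UMAMIT29, UMAMIT35 and UMAMIT36, which passed the filter through MS libraries only. UMAMIT14, which also needed its MS libraries to pass, is among the falls in Col and in both medians. Over all genes tested, 8.59% fell and 10.2% rose in erf114, and 11.5% fell and 10.4% rose in Col. Of the AAP genes, 1 of 7 fell and 4 rose in erf114, and 1 fell and 3 rose in Col. Of the GDU genes, 5 of 7 fell in each genotype and none rose, with GDU5 and its limit from the filter included. Median log2 values in erf114 were -0.72 for UMAMIT, 0.42 for AAP and -1.19 for GDU, and in Col -0.47, 0.36 and -1.12.

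The test of erf114 against Col addressed whether the mutant differs from the wild type in these genes. No gene of the 46 was called by edgeR on MS (0 of 46, against 0.0327% of all genes tested) or on MeJA (0 of 46, against 0.382%), and none in the test of the difference between the genotypes' responses (0 of 46, against 0.0273%). At an unadjusted p under 0.05 there were 4 on MS, 3 on MeJA and 6 for the difference between responses, where 3.82%, 8.58% and 6.04% of all tested genes reached that level. Of the 46, DESeq2 called 1 gene on each medium and none for the difference, and limma on FPKM called none. Over all 18326 genes tested, DESeq2 called 19 on MS, 233 on MeJA and 43 for the difference. Limma on log2(FPKM + 1) called 7, 80 and 6. In FPKM, 5 genes were higher in erf114 than in Col on MS without overlap (7.46% of all genes) and 1 was lower (2.21%), and on MeJA 4 were higher (4.45%) and 7 lower (13.0%). The genotype comparisons use the libraries of the MeJA comparisons, so their values are not independent of those.

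UMAMIT33 was the gene DESeq2 called on MS. As given above, its 3 erf114 MS libraries (19.29 to 22.8 FPKM) lay above its 3 Col MS libraries (11.65 to 14.86). The edgeR log2 value was 0.53 ± 0.10 with an adjusted p of 0.33, while DESeq2 gave 0.52 with an adjusted p of 0.0037. An exact 2-sided permutation test over the 3 and 3 libraries gave p = 0.1, the smallest this design allows. On MeJA, where the erf114 libraries (25.74 to 28.89) and Col libraries (25.69 to 26.85) overlapped, its log2 value was 0.15 ± 0.10.

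UMAMIT34 was the gene DESeq2 called on MeJA, at 10.24, 18.02 and 8.41 FPKM in erf114 on MeJA, against 6.42, 8.03 and 8.14 in Col on MeJA. The groups did not overlap, although the lowest erf114 library was close to the highest Col library. The log2 value was 0.79 ± 0.22 with an edgeR adjusted p of 0.24 and a DESeq2 adjusted p of 0.041, and the exact permutation p was 0.1. UMAMIT12 was lower in each erf114 MeJA library (1.61 to 3.08 FPKM) than in any Col MeJA library (3.31 to 4.71), with a log2 value of -0.65 ± 0.19 and an adjusted p of 0.31. Its difference between responses was -0.84 ± 0.26 (unadjusted p = 0.0065, adjusted p = 0.64).

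AAP3 had the next smallest unadjusted p for the difference between responses, with -0.46 ± 0.16 (unadjusted p = 0.013, adjusted p = 0.64). Its 3 erf114 MS libraries (15.92 to 19.88 FPKM) lay above its 3 Col MS libraries (9.99 to 15.23). For the genes called in 1 genotype only, the difference between responses was 0.51 ± 0.23 for LHT1, 0.32 ± 0.40 for UMAMIT11, 0.94 ± 0.72 for UMAMIT14, 0.06 ± 0.18 for AAP1, 0.16 ± 0.21 for UMAMIT1, -0.72 ± 0.35 for UMAMIT13, -0.42 ± 0.21 for UMAMIT45 and -0.20 ± 0.19 for UMAMIT6 (adjusted p of 0.64 or more in each). These misses do not show that the genotypes respond alike.

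Other genes of amino acid transport and nitrogen assimilation were taken by name from lists. Of 14 further carriers tested, 4 fell and 1 rose in erf114, and 6 fell and 1 rose in Col. Over all genes tested, 8.59% fell and 10.2% rose in erf114 and 11.5% fell and 10.4% rose in Col, which are the shares to read the counts of this list and of the other lists against. WAT1, the UMAMIT-family protein needed for secondary walls and vacuolar auxin export, was at 95.58 to 114.44 FPKM in erf114 on MeJA, 238.63 to 275.76 in erf114 on MS, 102.45 to 111.27 in Col on MeJA and 281.0 to 294.7 in Col on MS. Its log2 fold change was -0.98 ± 0.16 in erf114 and -1.38 ± 0.16 in Col. DUR3, the urea transporter of the root, was at 8.31 to 10.87 FPKM in erf114 on MeJA, 29.1 to 37.36 in erf114 on MS, 7.57 to 10.01 in Col on MeJA and 22.79 to 30.67 in Col on MS (log2 -1.48 ± 0.13 in erf114 and -1.61 ± 0.13 in Col). CAT1, a carrier of basic amino acids, fell with log2 values of -1.72 ± 0.34 in erf114 and -1.85 ± 0.32 in Col.

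Ammonium assimilation genes moved in both directions: 4 of 13 rose and 2 fell in erf114, and 4 rose and 3 fell in Col. ASN1, the asparagine synthetase gene induced by darkness and carbon shortage, was at 62.99, 52.41 and 46.91 FPKM in erf114 on MeJA, against 2.39, 1.99 and 1.87 in erf114 on MS, and at 92.52, 71.17 and 88.87 in Col on MeJA, against 2.57, 2.3 and 2.17 in Col on MS. It rose 32.2-fold in erf114 (log2 5.01 ± 0.22) and 37.5-fold in Col (log2 5.23 ± 0.22). GDH2, a glutamate dehydrogenase subunit, rose 4.77-fold in erf114 and 5.29-fold in Col, and GDH3, at most 1.17 FPKM in any library, had log2 values of 2.88 ± 0.51 and 2.68 ± 0.53. GLN1;2, a cytosolic glutamine synthetase, fell 2.54-fold in erf114 and 2.97-fold in Col, to a mean of 890.4 FPKM in erf114 on MeJA, against 2779.5 in erf114 on MS, and 833.0 in Col on MeJA, against 2576.7 in Col on MS. Of 9 aminotransferase and asparaginase genes, 4 rose in erf114 and 1 in Col, and none fell. The nitrate transporter gene NRT2:1 had log2 values of -5.22 ± 0.33 in erf114 and -4.78 ± 0.33 in Col.

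**Figure D4:**
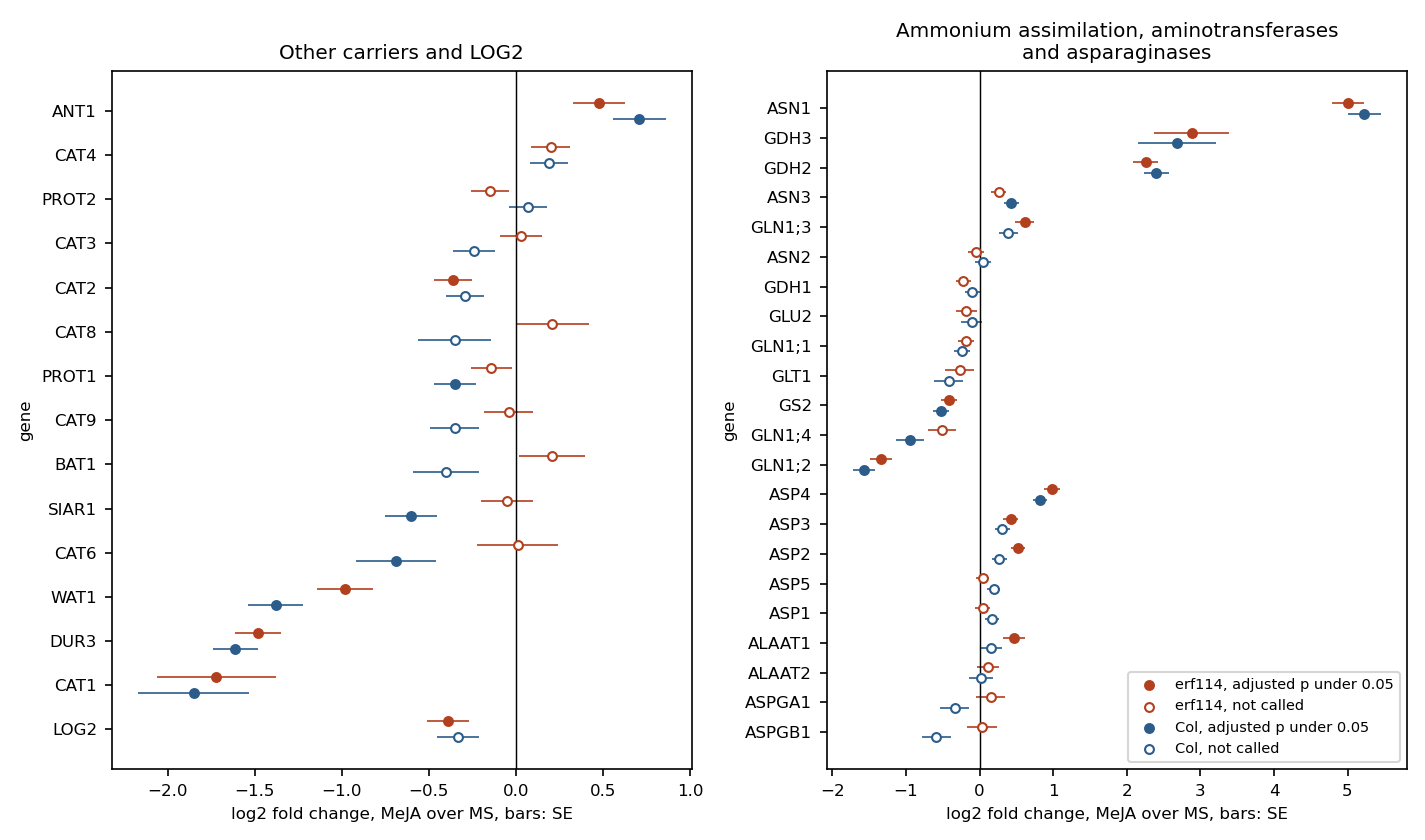
Log2 fold change of MeJA over MS for genes outside the 4 families, in erf114 (red) and Col (blue), with the SE as bars; filled points passed the edgeR test at an adjusted p under 0.05. WAT1, DUR3 and CAT1 lie lowest among the carriers on the left, and ASN1, GDH3 and GDH2 highest among the assimilation genes on the right.

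Some cell type markers also changed with MeJA, while most of those listed were not called. Over all genes tested, 18.8% were called in erf114 and 22.0% in Col. Of 4 pericycle and stele markers, PHO1 and SKOR fell in both genotypes, with log2 values of -1.07 and -1.71 in erf114 and -1.02 and -1.40 in Col. SHR and WOL were not called in either genotype, with log2 values of 0.00 and -0.53 in erf114 and -0.41 and -0.49 in Col. The summed FPKM of the 4 was 67.7 to 81.2 in erf114 on MeJA, 147.8 to 177.3 in erf114 on MS, 69.4 to 80.7 in Col on MeJA and 100.3 to 180.0 in Col on MS, with the lowest Col value in replicate 1. PHO1 held most of this sum, with a mean of 40.9 FPKM in erf114 on MeJA, 106.1 in erf114 on MS, 43.2 in Col on MeJA and 93.8 in Col on MS. Of 5 phloem markers 3 rose in erf114 and 2 in Col, and their sum was 95.8 to 98.2 in erf114 on MeJA, 67.6 to 84.7 in erf114 on MS, 115.1 to 128.7 in Col on MeJA and 77.5 to 84.9 in Col on MS. None of 6 xylem markers was called in either genotype, and 1 of 4 root hair markers fell in erf114 and 2 in Col. The endodermis sum was 772.3 to 888.1 FPKM in erf114 on MeJA, 1013.5 to 1048.7 in erf114 on MS, 828.3 to 856.9 in Col on MeJA and 1068.2 to 1281.4 in Col on MS. CASP1 held most of this sum, with a mean of 543.5 FPKM in erf114 on MeJA, 653.1 in erf114 on MS, 539.1 in Col on MeJA and 768.0 in Col on MS, and it was not called in either genotype. Of the 6 endodermis markers only CASP5 was called lower on MeJA, with log2 values of -1.74 in erf114 and -1.46 in Col, and on MeJA it was called lower in erf114 than in Col (log2 -0.64). Of 3 root cap markers none was called in erf114 and 2 fell in Col. No marker of these lists was at 0 in any group, whereas the seed genes CRU3 and SESA2 were at 0 in all Col libraries. The part of these lists in the changes of the transporter genes was not tested.

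Below the filter were 11 symbols: AAP8, LHT2, LHT7, UMAMIT7, UMAMIT8, UMAMIT15, UMAMIT23, UMAMIT25, UMAMIT32, UMAMIT46 and UMAMIT47. The nearest to it from below was UMAMIT32, at 1.12, 0.78 and 0.99 FPKM in erf114 on MeJA, against 0, 0 and 0.06 in erf114 on MS, and at 0.87, 1.01 and 0.75 in Col on MeJA, against 0.06, 0 and 0.06 in Col on MS. It was present on MeJA and nearly absent on MS, with 54 counts against 1 in erf114 (ratio 53.8, 95% interval 9.26 to 2164.3) and 49 counts against 2 in Col (ratio 24.6, 95% interval 6.44 to 208.5). These exact intervals cover counting error only. UMAMIT8 reached 1 FPKM in 1 library, and the highest value of UMAMIT25 was 0.75. Just inside the filter, UMAMIT29, UMAMIT35 and UMAMIT36 reached 1 FPKM in 6 libraries and UMAMIT14 in 7. AAP8, a carrier known from seeds, and UMAMIT23 had at most 0.09 and 0.07 FPKM in any library.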

How the data were processed

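For each library the authors deposited estimated counts, TPM and FPKM by gene. Between 1.542 and 1.718% of a library's deposited estimated counts were not whole, and all were rounded. The deposited TPM values served only to find the smallest value listed, 0.01. The deposited FPKM values were used for the filter and for levels, and a gene missing from a table was set to 0. For the aligner, the counting tool, its strand setting and the genome build, no statement was found in the labels or headers. All 23719 gene identifiers matched RefSeq's annotation of TAIR10.1, from which coordinates, coding sequences and promoters were read.

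Tests used edgeR 4.0.16 in R 4.3.3: TMM factors, 18326 genes that reached FPKM 1 in 3 or more libraries, a mean for each of 4 groups, 8 residual degrees of freedom, the quasi-likelihood test and Benjamini-Hochberg adjustment over all genes at 0.05. A value after ± is the SE of a log2 fold change (its size over the root of F) or, where marked, an SD. The biological coefficient of variation was 17.91%, which limits small differences and genes of few counts. Alternatives used DESeq2 1.42.0 and limma 3.58.1 on log2(FPKM + 1) and log2(FPKM + 0.1), other filters and scaling, a replicate block and each library left out. Coding sequences were aligned pairwise with biopython 1.88, with identity over the shorter one. The edgeR fit was checked on simulated counts.

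Genes named with every library are those called with a 2-fold or larger change whose higher group averaged 5 FPKM or more; the other called genes are given by value or range, and some others (UMAMIT14 and UMAMIT29, given with every library, UMAMIT2, UMAMIT34, UMAMIT37 and the genes below the filter) were chosen after their values were seen. The members and all lists were chosen with earlier results of these data known. Of the listed carriers, 17 names had no match and were not analysed here. Replicate numbers come from the titles. Deviations from the group means correlated between equal numbers at 0.48, 0.46 and 0.3 for MeJA and MS in Col and at 0.28, 0.23 and 0.33 for the genotypes on MS. These comparisons were therefore taken as paired, and the other pairs of groups were not. The main fit has no replicate term, so the pairing entered only the alternatives with a replicate block. No replicates agreed within sampling noise (chi-square per gene of 6.9 to 59.0).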

Additional observations from a re-analysis of the deposited data

How the results depend on the processing

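The number of genes called for MeJA ran from 23 to 35 in erf114 over 22 alternatives and from 22 to 32 in Col over 23, with the lowest counts where a mean FPKM of at least 5 left fewer genes to test. Leaving out 1 library at a time gave 25 to 35 in erf114 and 26 to 30 in Col. Of the genes called, 25 of 30 in erf114 and 25 of 28 in Col kept their call under every alternative that tested them, and no sign reversed. With the replicate block, 33 genes were called in erf114, 29 in Col (30 when only its 2 groups were fitted) and 0 in the genotype comparisons; AAP1 in Col was the only gene of the paired comparisons whose call it changed. Of the 46 genes, DESeq2 called 1 for erf114 against Col on MS (19 over all genes) and 1 on MeJA (233 over all genes), where edgeR called 0. Limma on log2(FPKM + 1) moved the median of all genes to -0.282 in erf114 and -0.048 in Col, and called 29 lower and 6 higher genes of the 46 in erf114 and 24 lower and 6 higher in Col. Under it, 5419 of all genes were called in erf114, 22.6% of them higher, and 4620 in Col, 32.7% of them higher. Of the 46, DESeq2 called 25 lower and 10 higher in erf114 and 22 lower and 7 higher in Col. Over all genes, DESeq2 called 3873 in erf114, 56.2% of them higher, and 4604 in Col, 47.7% of them higher. Leaving out erf114 MS replicate 3 and Col MS replicate 1 together, an alternative chosen after seeing the data, as was the block on 2 groups, gave 32 in erf114 and 30 in Col, and leaving out erf114 MeJA replicate 3 as well, chosen likewise, gave 34 in erf114 and 32 in Col. Limma on log2(FPKM + 1) gave smaller changes for genes near 1 FPKM, such as UMAMIT35 (log2 -1.43 in erf114 and -1.37 in Col). Depth limits the genes near 1 FPKM, whose MeJA levels rest on few reads.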
